A study of Mus musculus with 12 samples.

Results

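The 10 microRNAs described here are miR-741-3p, miR-743a-3p, miR-743b-3p, miR-871-3p, miR-871-5p, miR-878-5p, miR-880-3p, miR-881-3p, miR-883a-3p and miR-470-5p. They are mature microRNAs of the Fx-mir cluster, an X-linked group of microRNA genes, outside its miR-465 family. They were taken by name from the 616 microRNAs listed for the series, and all 10 were found and passed the filter on low values. The study sequenced small RNAs of the embryonic gonad in 2 cell fractions, primordial germ cells (PGCs), which later give rise to eggs or sperm, and gonadal somatic cells (SC). Embryos of the CD1 mouse strain were used, female and male, aged 11.5, 12.5 or 13.5 days (labelled E11.5 to E13.5), and the labels name no treatment. Each of the 12 combinations is represented by a single library. Per the labels, groups of about 80 gonads were pooled and separated with anti-CD15 magnetic beads, with a stated PGC enrichment of 93 to 96% and a stated SC purity of over 90%.

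A microRNA is cut from a hairpin in a longer transcript, by Drosha in the nucleus and Dicer in the cytoplasm, and either arm of the hairpin (5p or 3p) can be kept. Bases 2 to 8 of the mature microRNA, the seed, pair with target mRNAs and largely set which mRNAs are repressed. The Fx-mir cluster lies between Slitrk2 and Fmr1, changes fast in rodent evolution, and is known for microRNAs that are abundant in the testis and in male germ cells. PGCs settle in the gonad in the days sampled here, and the gonad takes on its ovarian or testicular form around E12.5.

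Levels are given in reads per 1e+06 microRNA reads of the library (RPM), and a microRNA with under 5 reads in a library is listed at 0. That limit stood at 2.83 to 29.98 RPM, for libraries of 166804 to 1768825 microRNA reads. All 6 germ cell markers (microRNAs of the miR-290 cluster, which is active in pluripotent and germ cells) were detected in every PGC library. Their summed level was 59370 to 118106 RPM in 5 PGC libraries and 1874 RPM in the PGC female E11.5 library. That library stood apart. Its 7 somatic markers summed to 84094 RPM, against 9206 to 58050 RPM in the other PGC libraries and 87869 to 114434 RPM in SC. The germ cell markers were not absent from SC either, with 5 or 6 of 6 detected and 206 to 5187 RPM. In bulk samples such as these, fewer cells of a type and less RNA per cell cannot be told apart.

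All 10 sequences were matched by name in RefSeq (GRCm38.p6, the genome version of the submitters' alignment). They come from 9 hairpins on the minus strand of chrX:66776757-66814025, a stretch of 37.3 kb that holds 13 microRNA genes. None of the 9 hairpins overlaps another RefSeq gene, so all are intergenic. The nearest annotated coding gene on either side of the stretch, Gm52436, is 16.1 kb away. The mature sequences are shown 5′ to 3′ in the order in which the strand is read, because position and seed both come back in the results. Capitals mark the seed.

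miR-470-5p: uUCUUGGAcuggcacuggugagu

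miR-871-5p: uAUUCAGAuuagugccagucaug

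miR-871-3p: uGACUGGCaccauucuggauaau

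miR-881-3p: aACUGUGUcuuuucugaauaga

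miR-878-5p: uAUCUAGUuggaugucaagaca

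miR-880-3p: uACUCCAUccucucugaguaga

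miR-741-3p: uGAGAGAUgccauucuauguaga

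miR-883a-3p: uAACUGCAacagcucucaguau

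miR-743b-3p: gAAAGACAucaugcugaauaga

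miR-743a-3p: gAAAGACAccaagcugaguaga

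The 10 microRNAs carry 9 different seeds. Only miR-743a-3p and miR-743b-3p share a seed with each other (AAAGACA). They are identical at 19 of 22 positions and differ by C9U, A12U and G18A, counted from 1 at the 5′ end with the miR-743a-3p base first. Beyond the 10, miR-883a-3p has its seed in common with miR-883b-3p, and miR-871-5p with miR-743a-5p. Of the 7 microRNAs from the 3p arm, 5 end in the same 4 bases, UAGA (miR-881-3p, miR-880-3p, miR-741-3p, miR-743b-3p and miR-743a-3p). The same ending is found in 14 of the 1679 mature mouse sequences of the table (0.834%). This is a description of the letters only.

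miR-881-3p was the most abundant of the 10 in the E13.5 germ cells. It stood at 8362 RPM in females and 8413 RPM in males, rank 29 and rank 30 among all microRNAs of those libraries. miR-741-3p (4074 RPM in females, 3373 RPM in males) and miR-871-3p (4107 and 3018 RPM) followed. Their female-to-male ranges overlapped, so their order is not resolved. miR-470-5p stood at 1871 and 2440 RPM. Below it came miR-880-3p (1499 and 1290 RPM) with miR-878-5p (1427 and 1188 RPM), then miR-743b-3p (1039 and 899.9 RPM) with miR-883a-3p (962 and 800 RPM). The lowest were miR-743a-3p (551 and 737 RPM) and miR-871-5p (621 and 551 RPM). Within each of these last pairs the ranges overlapped, and between them they did not. The highest mean level was 14.3 times the lowest, so microRNAs of a single 37.3 kb stretch were present at quite unequal levels.

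The same microRNAs were far lower on E11.5, and in the female library at or near the limit of detection. In PGCs, miR-881-3p was at 13.9 RPM (female) and 455 RPM (male) on E11.5, at 444 and 934 RPM on E12.5, and at 8362 and 8413 RPM on E13.5. Both E13.5 values lay above both E12.5 values, and the female E11.5 value was the lowest of the 6. For miR-741-3p the PGC values were 9.01 and 245 RPM, then 611 and 918 RPM, then 4074 and 3373 RPM. For miR-871-3p they were 4.91 and 73.9 RPM, then 713 and 635 RPM, then 4107 and 3018 RPM. Each of these 3 was higher on each later day in both sexes. For miR-470-5p they were 6.55 and 55.4 RPM, then 731 and 402 RPM, then 1871 and 2440 RPM. For miR-880-3p they were under 5 reads (female) and 76.2 RPM (male), then 42.0 and 54.3 RPM, then 1499 and 1290 RPM. miR-880-3p thus had its 2 E12.5 values below its male E11.5 value. The other 5 microRNAs ranged from under 5 reads to 9.01 RPM in the female and 13.9 to 83.2 RPM in the male E11.5 library, and from 65.9 to 223 RPM in the E12.5 libraries.

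**Figure D1:**
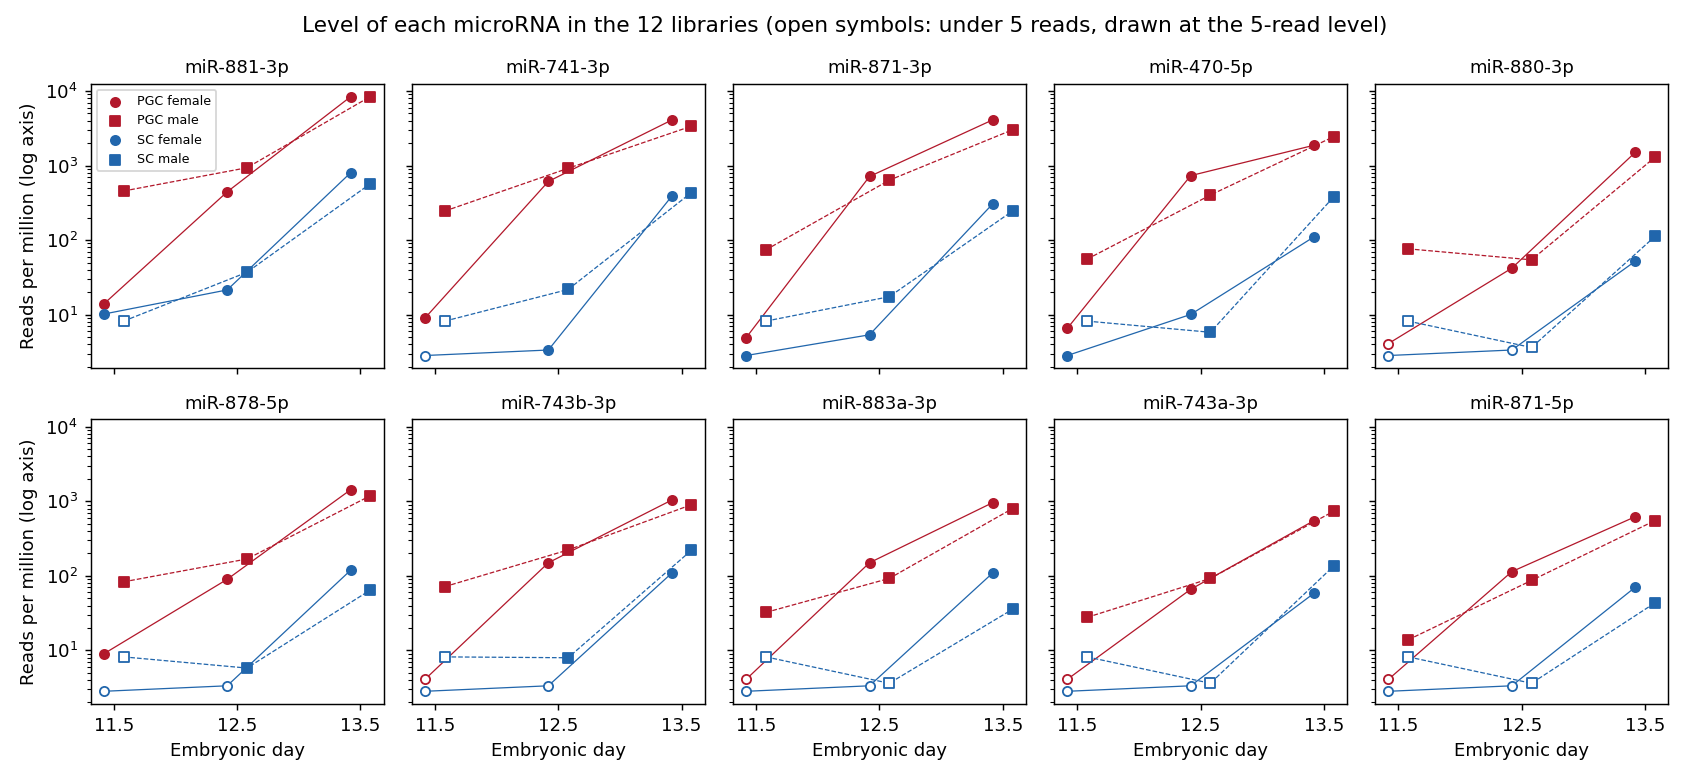
Level of each of the 10 microRNAs, in RPM on a log axis, against embryonic day, with 1 panel per microRNA ordered by E13.5 level in PGCs. Red points are PGC and blue points SC libraries (circles female, squares male, 1 library each), and open symbols mark under 5 reads, drawn at the 5-read level. The PGC points at E13.5 are the highest of every panel, from 551 RPM for miR-743a-3p in females and miR-871-5p in males to 8413 RPM for miR-881-3p.

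Between E11.5 and E13.5 all 10 rose in PGCs (limma on log2(value + 1) of the deposited normalized counts, Benjamini-Hochberg adjusted p under 0.05 over all 513 microRNAs tested). At that threshold 7.8% of all microRNAs rose, and the median of all was a change of -0.99 on the log2 scale, against 6.14 for the 10. miR-871-3p changed by 6.74 ± 0.96 (SE) on that scale with an adjusted p of 2.92e-07, and miR-878-5p, with the smallest change, by 4.85 ± 1.06 with an adjusted p of 0.000379. In the same limma model with each library brought to equal totals (RPM), all 10 also rose, against 7.41% of all microRNAs, with adjusted p from 0.0052 to 0.016. The folds are given by sex, without a test. In males, where all 10 were detected on E11.5, the E13.5 RPM was 12.6 to 44.0 times the E11.5 RPM. In females the 5 microRNAs detected on E11.5 were 158 to 836 times higher, and the other 5 were at least 135-fold to 366-fold higher than the 5-read limit. Without the PGC female E11.5 library that stood apart, 4 of 10 passed on the deposited scale and 7 of 10 at equal totals, all 10 being still higher, with a median of 4.55 and 4.48. Without both E11.5 female libraries 0 of 10 passed on either scale, 9 of 10 having an unadjusted p under 0.05. The germ cell markers moved in the same direction, 6 of 6 rising as deposited (median 2.42) and 0 of 6 passing at equal totals (median 3.04), and on both scales 5 of 7 somatic markers fell and 2 rose (miR-202-5p and miR-202-3p), where 25.1% of all microRNAs fell as deposited and 21.4% at equal totals. Other cell types' markers fell too. Both arms of the endothelial miR-126a fell, from 51442 RPM in the female and 27782 RPM in the male E11.5 library, summed, to 11230 and 6751 RPM on E13.5. All 3 muscle markers fell, from a sum of 1229 and 913 RPM to 55.8 RPM and under 5 reads each. The liver microRNA miR-122-5p fell from 4280 and 2015 RPM to under 5 reads in both E13.5 libraries. Of 3 erythroid markers 2 fell as deposited and 1 at equal totals, from a sum of 1533 and 707 RPM to 174 and 73.9 RPM. The germ cell markers thus changed in the same direction as the 10. The somatic, endothelial, muscle, liver and erythroid markers mostly changed in the opposite direction. The part of any of these markers in the rise of the 10 was not tested. Over the alternatives run, 0 to 174 of all microRNAs passed in either direction for PGC E13.5 against E11.5, and 169 in the main fit. Each condition was a single library, so these p-values measure the spread between libraries and not between repeated isolations.

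The E12.5 germ cells are where the scale matters. From E11.5 to E12.5 the deposited values gave 2 rises, miR-871-3p (log2 change 2.78 ± 0.96, adjusted p 0.0113 by limma) and miR-470-5p (log2 change 2.50 ± 0.98, adjusted p 0.0246), against 1.56% of all microRNAs. At equal totals 6 of 10 rose, against 7.41% of all. The 4 others at equal totals were miR-878-5p (2.10 on the log2 scale, limma adjusted p 0.172), miR-881-3p (2.97, 0.119), miR-743b-3p (4.43, 0.0592) and miR-880-3p (2.47, 0.223). Without the PGC female E11.5 library 0 of 10 passed on either scale. From E12.5 to E13.5 all 10 rose on the deposited scale, where 31.6% of all microRNAs did and the median of all was 1.39. At equal totals 0 of 10 passed (limma, 4 of 10 with an unadjusted p under 0.05), against 9.75% of all, with a median of 2.72 for the 10 and 0.01 for all. With limma's voom on the reads 0 of 10 passed as well. The fit of PGC libraries alone also gave 0 of 10 on the deposited scale. Over the alternatives run, the number of all microRNAs passing in either direction varied too. It was 0 to 334 for E12.5 against E11.5 (312 in the main fit) and 0 to 166 for E13.5 against E12.5 (162 in the main fit). By RPM, each of the 10 was higher in both E13.5 PGC libraries than in both E12.5 PGC libraries. The share of all microRNAs with that order was not counted. The RPM ratio of E13.5 to E12.5 was 2.56 to 35.7 in females and 3.68 to 23.8 in males.

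Summed, the 10 microRNAs made up 0.00434% of microRNA reads in the female and 0.113% in the male E11.5 PGC library, 0.311% and 0.361% on E12.5, and 2.45% and 2.27% on E13.5. On E11.5 the male sum was 26.1 times the female sum (95% interval 19.7 to 35.4, counting error only). The 6 germ cell markers were 31.7 times higher in the same male library. Set against those markers, the intervals of the sexes overlapped. The sum of the 10 was 23.2 reads per 1000 marker reads in the female (17.3 to 30.4) and 19.1 in the male library (17.4 to 20.9). On E12.5 it was 30.7 and 30.5 reads per 1000 marker reads. On E13.5 it was 305 and 221. From E12.5 to E13.5 the ratio to the markers was thus 9.94 times higher in females and 7.24 times higher in males. With the PGC libraries scaled to these markers, all 10 remained higher on E13.5 than on E11.5, and 0 of 10 passed (limma, 2 of 10 with an unadjusted p under 0.05).

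**Figure D2:**
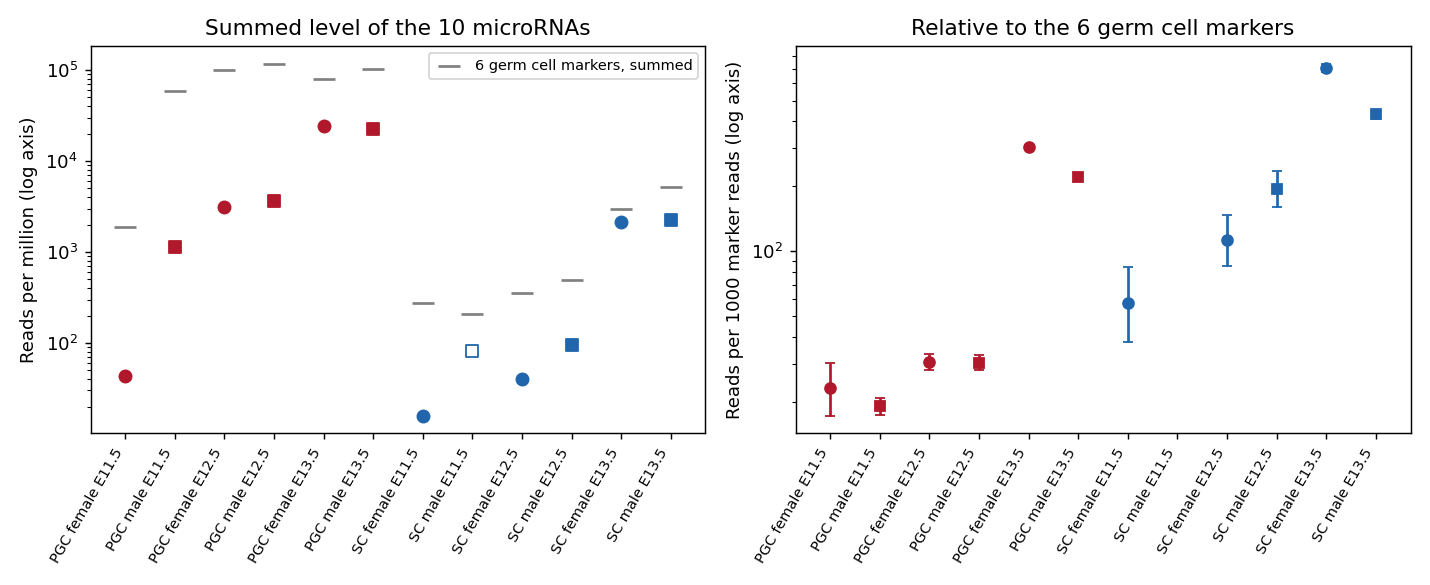
Left, summed RPM of the 10 microRNAs (red PGC, blue SC, circles female, squares male) and of the 6 germ cell markers (grey dashes) in each library, on a log axis; the open square is the SC male E11.5 library, where all 10 were under 5 reads, drawn at 5 reads for each. Right, reads of the 10 per 1000 reads of the markers, on a log axis, with exact 95% intervals for counting error; the 4 PGC libraries of E11.5 and E12.5 lie between 19.1 and 30.7, and the E13.5 PGC libraries at 305 and 221.

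The 10 did not keep their proportions while they rose. In the male E11.5 library miR-881-3p held 40.1% of their summed reads and miR-470-5p held 4.89%. In the female E12.5 library miR-881-3p held 14.3%, miR-871-3p 22.9% and miR-470-5p 23.5%, so these last were above miR-881-3p. miR-880-3p held 6.72% in the male E11.5 library, 1.35% and 1.51% in the E12.5 libraries, and 6.12% and 5.68% in the E13.5 PGC libraries. The make-up of the female and male E13.5 PGC libraries differed by 7.04% of the reads, and that of the E12.5 PGC libraries by 21.2%. The E12.5 PGC libraries held 519 and 664 reads of the 10, so a single microRNA rests there on as few as 7 reads.

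**Figure D3:**
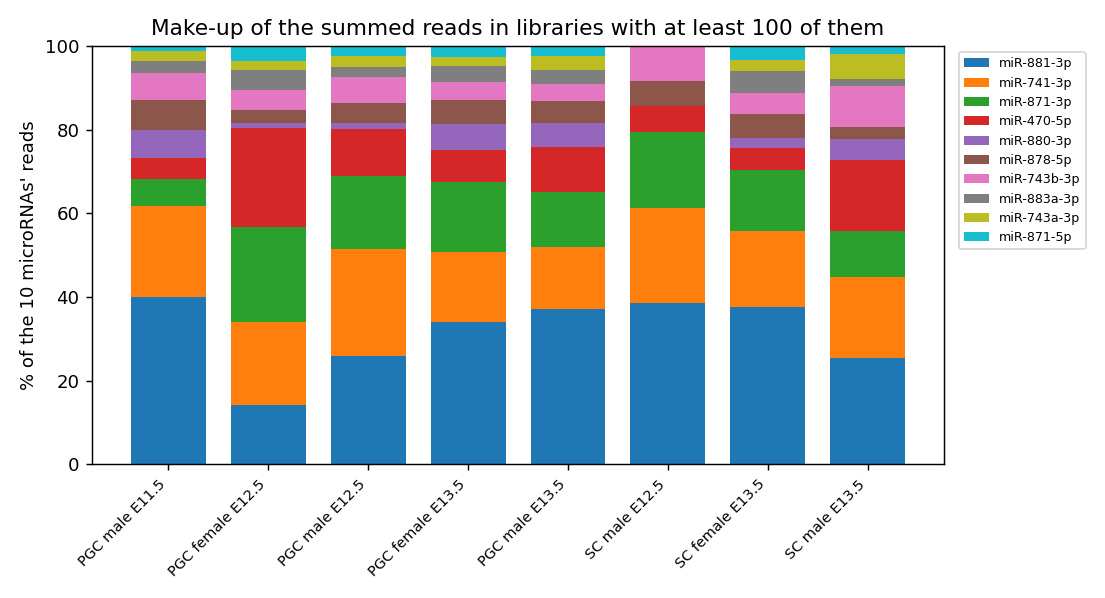
Stacked bars of the percent of the summed reads of the 10 microRNAs that each contributed, in the 8 libraries with at least 100 such reads. miR-880-3p is a thin band in the E12.5 PGC libraries (1.35% and 1.51%) and a wider one in the E13.5 PGC libraries (6.12% and 5.68%).

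In females the microRNAs lowest on E12.5 relative to E13.5 lay next to each other. The level on E12.5 as a percent of that on E13.5 was lowest for miR-880-3p, at 2.80% in females (1.12 to 5.80) and 4.21% in males (2.01 to 7.81), from 7 and 10 reads. miR-881-3p was second lowest in both sexes, at 5.31% (4.16 to 6.68) and 11.1% (9.47 to 12.9). miR-878-5p came next in females, at 6.30% (3.51 to 10.5), and was at 14.2% in males (9.52 to 20.4). The hairpins of these 3 microRNAs are neighbours within 1492 bp. Upstream of them, miR-470-5p was at 39.1% in females (32.0 to 47.3) and 16.5% in males (12.8 to 20.9), and miR-871-3p at 17.4% and 21.0%. Downstream, miR-741-3p was at 15.0% and 27.2%, and the remaining 3 at 11.5 to 24.7% over both sexes. In females the 3 neighbours were the 3 lowest of 10, and in males they were not, because miR-883a-3p (11.5%) and miR-743a-3p (12.5%) lay below miR-878-5p. This ordering along the strand was looked at after the values were seen and carries no test.

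**Figure D4:**
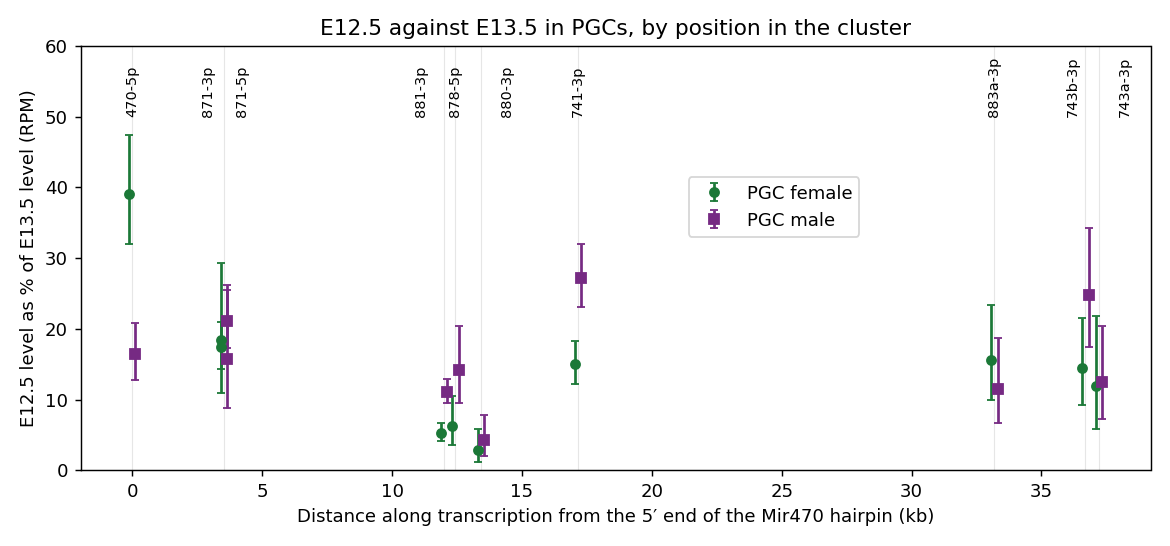
Level on E12.5 as a percent of the level on E13.5 in PGCs, against the distance of each hairpin along the strand from the start of the Mir470 hairpin in kb (green circles female, purple squares male, bars exact 95% intervals for counting error). The lowest points are those of miR-880-3p (2.80% and 4.21%), beside miR-881-3p and miR-878-5p.

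The 10 microRNAs also appeared in the somatic fraction. On E11.5 the SC female library held 3 of them, miR-881-3p (10.2 RPM), miR-871-3p (2.83 RPM) and miR-470-5p (2.83 RPM), and the SC male library held 0 of 10, each under 8.18 RPM. On E12.5, 4 and 6 of 10 were detected, led by miR-881-3p at 21.4 and 36.9 RPM. On E13.5 all 10 were present in both SC libraries, from 52.0 RPM (miR-880-3p) to 798 RPM (miR-881-3p) in females and from 35.6 RPM (miR-883a-3p) to 569 RPM (miR-881-3p) in males. All 10 rose from E11.5 to E13.5 in SC on the deposited scale by limma, against 8.38% of all microRNAs. At equal totals 9 of 10 did, against 6.63% of all, and miR-880-3p had an adjusted p of 0.0511. In females the 3 microRNAs detected on E11.5 were 39.1 to 109 times higher on E13.5, and the other 7 were at least 18.4-fold to 137-fold higher. The sum of the 10 was 2121 RPM in the female and 2241 RPM in the male E13.5 SC library.

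The germ cell markers moved with the 10 in SC, from 274 and 206 RPM on E11.5 to 2985 and 5187 RPM on E13.5. On E13.5 the sum of the 10 in SC was 8.65% of its PGC level in females (8.33 to 8.99) and 9.87% in males (9.42 to 10.3). The summed germ cell markers stood at 3.72% and 5.05% of their PGC level in the same libraries, and the 6 single markers at 2.60 to 5.37% in females and 4.21 to 6.26% in males. In females 9 of the 10 microRNAs were above the highest single marker, from 5.90% for miR-470-5p to 11.4% for miR-883a-3p, and miR-880-3p was at 3.47%. In males miR-743b-3p was at 24.5% (20.7 to 29.0), miR-743a-3p at 18.4%, miR-470-5p at 15.6% and miR-741-3p at 12.9%, while miR-883a-3p was at 4.45% and miR-878-5p at 5.43%. In males 8 of the 10 were above the highest single marker. These percents are of RPM, and on the deposited scale SC stood closer to PGCs. There miR-881-3p was at 1174 in SC and 3254 in PGCs of females, and at 962 and 3043 in males. In males miR-743b-3p was at 373 in SC and 325 in PGCs, so higher in SC. The SC to PGC ratio of single markers was 0.098 (miR-292a-5p, females) to 0.293 (miR-295-3p, males) on that scale. The part of germ cells in the SC levels was not tested. Relative to the markers the 10 were more abundant in SC than in PGCs, at 711 and 432 reads per 1000 marker reads on E13.5 against 305 and 221.

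**Figure D5:**
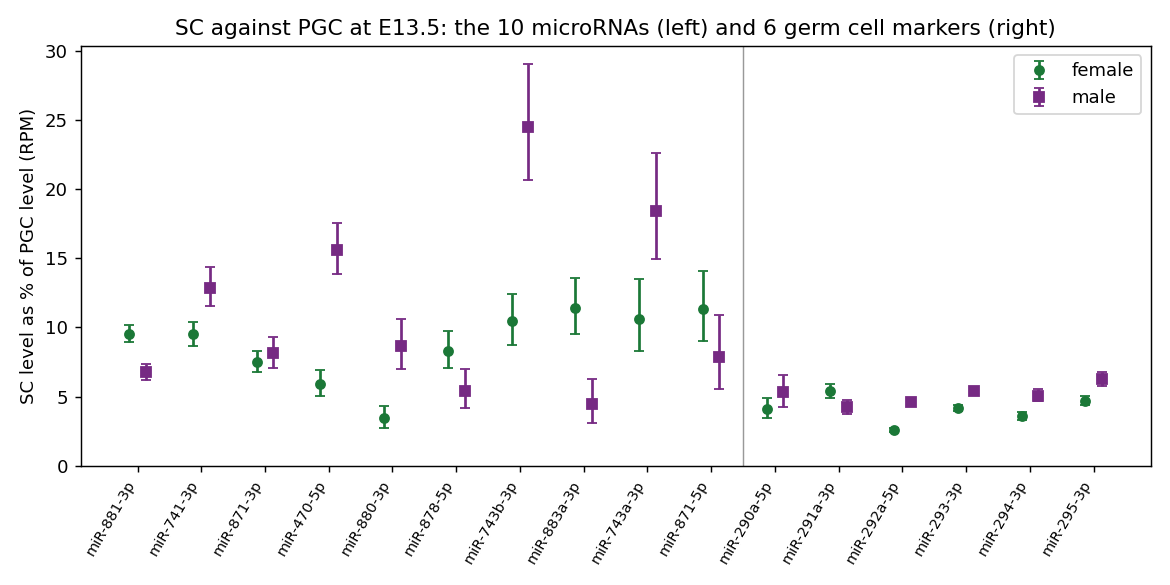
SC level as a percent of the PGC level of the same sex on E13.5, in RPM, for the 10 microRNAs (left of the line) and 6 germ cell markers (right of it), with exact 95% intervals for counting error (green circles female, purple squares male). The markers lie between 2.60 and 6.26%, and the 10 microRNAs between 3.47 and 24.5%.

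On average over the 6 stage-and-sex pairs, all 10 were higher in PGCs than in SC (limma with the pair as a block). Of all microRNAs 7.02% were higher as deposited and 13.5% with totals made equal. miR-741-3p differed most, by 2.91 ± 0.73 (log2 scale, limma, adjusted p 0.0015), then miR-878-5p, by 2.79 ± 0.68 (adjusted p 0.00136). miR-743b-3p differed least, by 1.91 ± 0.76 (adjusted p 0.0255). The median over the 10 was 2.11 and that over all microRNAs -2.57 on the deposited scale, against 4.28 and -0.74 at equal totals. Single pairs did not all go this way as deposited. In the female E11.5 pair SC was above PGC for miR-881-3p (22.0 and 12.5), miR-871-3p (6.10 and 4.41) and miR-470-5p (6.10 and 5.88). In that pair miR-741-3p and miR-878-5p were detected in PGCs only, and the rest in neither. In the male E13.5 pair miR-743b-3p was higher in SC (373 and 325). The values of the 2 cell types overlapped. For 8 of the 10 both E13.5 SC levels exceeded both E11.5 PGC levels, a count not made for all microRNAs. Without the pair block 0 of 10 passed (limma, 0 with an unadjusted p under 0.05). The pairs are of stage and sex, and whether paired libraries share a pool of gonads is not stated in the labels. The call also rested on single conditions. A pair that lacked a library was left out whole, PGC and SC together. The call held for 6 of 10 without the male E11.5 pair and for 3 of 10 without both E12.5 pairs. Without both E13.5 pairs it held for 6 of 10, and 0 of 10 passed at equal totals. It held for all 10 without the female E11.5 pair. Over the alternatives run, 6 to 442 of all microRNAs passed in either direction for PGC against SC, and 432 in the main fit. A lower count among the 10 is thus not shown to be particular to them.

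The rise from E11.5 to E13.5 was not shown to differ between PGCs and SC. For the difference of the changes 0 of 10 passed (limma, 1 with an unadjusted p under 0.05, miR-741-3p), against 0.78% of all microRNAs as deposited and 0% with totals made equal. The estimate was above 0 for 1 of 10 as deposited, for 5 at equal totals and for 8 after quantile normalization. For miR-741-3p the PGC change minus the SC change was -3.75 ± 1.33 on the log2 scale, with an adjusted p of 0.119. It was under 5 reads in both E11.5 SC libraries, so this estimate depends on the pseudocount. voom likewise gave 0 of 10, with 0 under an unadjusted 0.05.

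Female and male germ cells were compared over the 3 days, since the cluster is known from the testis. No sex difference passed for any of the 10 in PGCs (0 of 10 by limma, 2 with an unadjusted p under 0.05, and 0 of 10 by voom), against 0.39% of all microRNAs, and 0% at equal totals. All 10 estimates were on the male side, with a median of 1.19. Without both E11.5 PGC libraries, 6 of 10 were on the male side and the median was 0.27. On E13.5 itself the male RPM was 0.735 to 1.34 times the female RPM over the 10, with 0.926 for their sum (0.901 to 0.953). On E12.5 it was 0.549 (miR-470-5p) to 2.11 (miR-881-3p), with 1.16 for the sum. The change of the sex difference per day was below 0 for all 10 and passed for 0 of 10 (limma, 5 with an unadjusted p under 0.05, 0% of all microRNAs called), and for 1 of 10 it was above 0 without the PGC female E11.5 library.

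In SC the sums of the sexes were close on E13.5 and the single microRNAs were not. The male E13.5 SC library had 1.06 times the summed RPM of the female (1.00 to 1.11). miR-470-5p was 3.44 times as high in the male (2.89 to 4.12), miR-743a-3p 2.32 times, miR-880-3p 2.15 times and miR-743b-3p 2.03 times. miR-883a-3p was at 0.324 times the female level (0.221 to 0.464), miR-878-5p at 0.544, miR-871-5p at 0.617 and miR-881-3p at 0.713. The make-up of these SC libraries differed by 23.5% of the reads, against 7.04% for the E13.5 PGC libraries. miR-743a-3p and miR-743b-3p, which share a seed and lie side by side, moved alike here, while miR-878-5p and miR-880-3p, also neighbours, went opposite ways. These are single libraries and the intervals cover counting error only. Over the 3 days 0 of 10 passed between male and female SC (limma, 0 with an unadjusted p under 0.05, and 0 of 10 by voom), against 1.17% of all microRNAs, and 0% at equal totals.

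The same arm gave most reads of a hairpin in all 4 E13.5 libraries. The 3p arm held 93.8 to 97.4% of the reads of the Mir741 hairpin in the 4 E13.5 libraries, 75.5 to 90.4% for Mir743, 83.6 to 95.8% for Mir743b and 81.4 to 86.9% for Mir871. Mir878 was the opposite, with 18.0 to 29.5% of its reads from the 3p arm, so the 5p arm was its main product in both cell types. The SC male library gave the highest 3p share for Mir741, Mir743, Mir743b and Mir878, on 10 to 28 reads of the minor arm.

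Of the other Fx-mir microRNAs, 21 were listed and 16 passed the filter on low values. Among these, miR-465b-3p and miR-465c-3p had the same value in every library, so they are not independent. miR-465a-3p ran parallel to them at a lower level, so it may not be independent either. In the E13.5 PGC libraries it was at 167 and 288 RPM, against 332 and 574 RPM for each of them. miR-465b-3p and miR-465c-3p are included in each count below of microRNAs that rose or were higher. miR-465a-3p is included in each but that of microRNAs higher in PGCs as deposited. From E11.5 to E13.5, 15 of 16 rose in PGCs by limma as deposited and 15 at equal totals, against 7.8% and 7.41% of all microRNAs. On E11.5, 0 of the 21 reached 5 reads in the female PGC library and 7 did in the male. The rest could not fall from E11.5. miR-743b-5p, miR-471-3p and miR-883b-5p reached 5 reads in E13.5 libraries alone, so they passed the filter only through those values. In SC 14 of 16 rose as deposited, against 8.38% of all, and 10 at equal totals, against 6.63%. In both E11.5 SC libraries 0 of the 21 reached 5 reads, so none could fall in SC. These counts of rises are descriptions, and the shares of all microRNAs are not a like comparison. Between the cell types, 7 of 16 were higher in PGCs and 1 lower as deposited, where 7.02% of all microRNAs were higher and 77.2% lower. With totals made equal the counts were 8 and 1, where 13.5% of all were higher and 25.5% lower. The 4 with the highest mean were miR-465c-5p, miR-465b-5p, miR-465a-5p and miR-471-5p. miR-471-5p, from a hairpin inside the same stretch, was at 653 and 444 RPM in the E13.5 PGC libraries and 52.0 and 21.2 RPM in the E13.5 SC libraries. The lower one was miR-547-3p, under 5 reads in all 6 PGC libraries and at 53.1 and 66.4 RPM in the E13.5 SC libraries (-3.43 ± 0.98 on the log2 scale, limma adjusted p 0.0038). The 10 held 70.1 to 76.1% of all Fx-mir reads in the E13.5 PGC libraries and 69.3 to 74.9% in the E13.5 SC libraries.

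The profiles of the 10 across the 12 libraries were close to each other, with Pearson's r of 0.931 to 0.996 over the 45 pairs on log2(RPM + 1). Of 319 microRNAs outside the cluster with a mean of at least 50, those most like the mean of the 10 were miR-293-3p (r = 0.918), miR-290a-5p (0.903), miR-295-3p (0.893), miR-294-3p (0.892) and miR-293-5p (0.889). All 5 are arms of miR-290 cluster hairpins, of which 4 are among the germ cell markers. By Spearman's rho 4 of the 5 ranked among the first 5, of which miR-294-3p shared rank 4 with 2 others, and miR-293-3p ranked 10. The libraries share stage, cell type and depth, so these are descriptions of 12 points. miR-293-3p stood at 16921 RPM in the male E11.5, 15719 RPM in the male E12.5 and 29743 RPM in the male E13.5 PGC library.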

How the data were processed

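Small RNAs of 12 CD1 mouse gonad libraries, 1 per cell type, sex and embryonic day, were read at the depths given above. Per the submitters' processing notes, reads were handled with FastQC, Trim Galore and Bowtie 1.1.2 on GRCm38, and normalized with DESeq; for the counting step and the annotation release, the version is not given in the sources used here. What the authors deposited is a normalized signal, counts divided by a size factor. All nonzero values (100%) were whole multiples, at a tolerance of 1e-06, of the library's smallest value divided by 5, so reads were recovered and RPM computed; 0 means under 5 reads.

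limma 3.58.1 in R 4.3.3 (empirical Bayes with trend) was run on log2(value + 1) for the 513 microRNAs with a mean of at least 5; fold changes of low microRNAs are understated on this scale. PGC against SC had the stage-and-sex pair as a block (5 residual degrees of freedom), and stage and sex were terms within cell type in 1 fit of 12 libraries (4 degrees). The empirical Bayes step pools spread over microRNAs, so a p can be far smaller than these degrees alone would allow. The fit was tested on simulated data. Intervals are exact Clopper-Pearson at 95% and cover counting error only, since reads copied by PCR and lacking molecular identifiers do not each stand for a molecule.

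The 10 microRNAs and the marker lists were chosen with earlier results of these data known. All 10 are named; other Fx-mir microRNAs are given by counts, with the 4 of highest mean and any called the other way, and the 5 most alike by Pearson's r. Alternatives were other scales, pseudocounts, filters and sample sets.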

Additional observations from a re-analysis of the deposited data

How the results depend on the processing

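Of the 10 microRNAs, the number passing between PGC and SC was 6 to 10 with a library and its pair left out. It was 3 without both E12.5 pairs (2 at equal totals), 6 without both E13.5 pairs (0 at equal totals) and 0 without the pair block. For PGC E13.5 against E11.5 it was 4 to 10 with a library left out (4 without PGC female E11.5), and 0 without both E11.5 female libraries, on either scale, or when scaled to the germ cell markers. For E12.5 against E11.5 it was 0 to 7 with a library left out, 6 at equal totals, 9 after quantile normalization, 4 by voom, 1 with a pseudocount of 0.5 or no filter, and 0 without both E11.5 female libraries (either scale), in PGC libraries alone, or scaled to the markers. For E13.5 against E12.5 it was 0 to 10 with a library left out (0 without PGC female E13.5, 2 without PGC female E12.5, 5 without PGC male E12.5). It was 0 at equal totals, after quantile normalization, by voom, in PGC libraries alone and scaled to the markers, and 2 at equal totals without both E11.5 female libraries or 3 without PGC female E11.5 alone. For SC E13.5 against E11.5 it was 9 to 10 with a library left out, and 6 by voom or at equal totals without both E11.5 female libraries. The remaining 4 comparisons gave 0 in all alternatives run. The number of all microRNAs passing in either direction varied too, from 6 to 442 for PGC against SC. In PGCs it was 0 to 174 for E13.5 against E11.5, 0 to 334 for E12.5 against E11.5, and 0 to 166 for E13.5 against E12.5. For SC E13.5 against E11.5 it was 24 to 71. A count of 0 among the 10 is therefore not shown to be particular to them. The cause of these changes in the counts was not tested.

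Of the comparisons of PGC with SC and of days within a cell type, signs of single microRNAs turned only between E11.5 and E12.5. This was so for 18 estimates, each of 1 microRNA in 1 alternative, and some came from the same fit. In the remaining 4 the number of the 10 with an estimate above 0 ranged over the alternatives from 0 to 8 for the PGC change minus the SC change, from 6 to 10 for PGC males minus females, from 3 to 8 for SC males minus females and from 0 to 3 for the daily PGC sex slope. miR-743b-3p gave -0.030 without both E11.5 female libraries, and -0.030 to 4.40 with a library left out. miR-878-5p (main value -0.04) gave 2.10 at equal totals, 2.61 after quantile normalization, 2.27 by voom, 0.72 at equal totals without the E11.5 female libraries, 0.63 without PGC male E11.5 and 0.25 without PGC female E12.5, the range with a library left out being -0.71 to 0.63. miR-880-3p gave -0.22 with a pseudocount of 5, -1.96 without the E11.5 female libraries (-0.63 at equal totals) and -0.40 without PGC female E12.5, with -1.96 to 2.71 when a library is left out. miR-881-3p gave -0.69 without the E11.5 female libraries and -0.36 scaled to the markers, with -0.69 to 2.24 when a library is left out.

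The planned edgeR test was not run, because no value stands for 1 to 4 reads, and voom was added after seeing the data, as were the marker scaling and the fits at equal totals that leave libraries out. E12.5 comparisons without both E12.5 PGC libraries, and the daily sex slope without both E11.5 female libraries, could not be fitted. The labels carry no replicate numbers, and the pairs used are of stage and sex. Depth limits the E12.5 PGC values most.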

Other observations

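Another Fx-mir microRNA was seen only in the somatic fraction. miR-201-5p was at 23.6 RPM in the female and 13.5 RPM in the male E13.5 SC library and under 5 reads in the other 10 libraries, including all 6 PGC libraries, where the limit was 4.09 to 29.98 RPM. It did not pass the filter on low values and was not tested, and it was picked out after its values were seen.

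X-linked microRNAs outside the Fx-mir cluster were listed to set the cluster beside its chromosome. Of 31 listed, 30 were tested, and from E11.5 to E13.5 in PGCs 0 rose and 4 fell by limma as deposited (0 and 3 with totals made equal). Of all 513 microRNAs tested, 40 rose (7.8%) and 129 fell as deposited, and 38 rose (7.41%) and 110 fell with totals made equal. With so small a share rising, 0 of 30 is not shown to set these microRNAs apart from all. Their median change was -1.02, against -0.99 for all microRNAs. Those that fell were miR-503-5p, miR-322-3p, miR-322-5p and miR-542-3p, which come from neighbouring hairpins. Against SC, PGCs had 1 of 30 at a higher and 27 at a lower level as deposited, and 3 and 8 with totals made equal. Of all 513, 36 were higher and 396 lower as deposited, and 69 and 131 with totals made equal.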
